A study of Mus musculus with 8 samples.

Results

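The comparison described here set LPS-stimulated splenic B cells that lack the hs3b and hs4 enhancers of the immunoglobulin heavy chain (IgH) locus against stimulated cells that keep them. It used 4 of the 8 libraries of the series, chosen by genotype and state alone. The side that lacks both enhancers held 2 libraries, from animals homozygous for the 3'RR deletion and from animals homozygous for the hs3b-hs4 deletion. The side that keeps them held the library of wild-type animals and that of animals homozygous for the 3'PAL deletion. The labels give only the name of the 3'PAL deletion, and it was taken here as keeping hs3b and hs4. All animals, controls included, were of a mixed background that the labels write as 129/C58BL/6. Spleen B cells were purified by density gradient and depletion of CD43-positive cells, then cultured for 48 hours with 5 µg/mL LPS and passed over a gradient again. Each library came from RNA of B cells pooled from 4 animals, so a genotype in a state is a single library. The 4 resting libraries of the same genotypes entered the fit and serve below as a reference. No source used here says if 1 set of animals gave both the resting and the stimulated cells of a genotype.

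The 3' regulatory region (3'RR) lies downstream of the IgH constant genes and is a cluster of enhancers, of which hs3b and hs4 are the last ones. It raises IgH transcription in activated B cells and plasma cells, and it drives the germline transcription that precedes switching from IgM to the IgG, IgE and IgA classes. LPS acts on mouse B cells through TLR4 and NF-kB, makes them divide and differentiate into IgM-secreting plasmablasts, and in culture directs switching mainly to IgG3 and IgG2b. The deletion of the whole region removes further enhancers besides hs3b and hs4, so the lacking side holds a larger and a smaller deletion.

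Total gene counts were 25596608 to 28785192 in the 4 stimulated libraries. The B cell markers Ms4a1, Cd79a, Cd79b and Pax5 were present in all 4, with Ms4a1 at 769 to 937 CPM (counts scaled to library size with TMM factors) and Pax5 at 96.6 to 105 CPM. The 10 neutrophil markers summed to at most 0.298 CPM. T cell markers summed to 12.45 to 26.15 CPM, monocyte and macrophage markers to 19.6 to 38.2 and dendritic cell markers to 54.65 to 66. Lck alone gave 10.8 to 21.5 CPM of the T cell sum, and Flt3 alone 43.6 to 50.7 of the dendritic cell sum. Erythroid markers summed to 176 CPM in the 3'RR deletion library, 66.8 in the hs3b-hs4 deletion library, 255 in the 3'PAL deletion library and 19.9 in the wild-type library, so they did not follow the sides. The closest pair of stimulated libraries lay across the sides: hs3b-hs4 deletion and wild type differed at least 2-fold in 215 genes, the 2 lacking libraries in 350 and the 2 keeping libraries in 408. The widest pair was 3'RR deletion against 3'PAL deletion, with 521 genes. A cluster of chromosome 7 genes described below was high in the stimulated hs3b-hs4 deletion library but low in the resting library of the same genotype. Whether the stimulated hs3b-hs4 deletion library holds RNA of another pool, or comes from other animals than its resting counterpart, was not tested, and this touches every value of that library below. Without it the lacking side is the 3'RR deletion alone, and edgeR again called 0 genes.

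No gene passed the test between the sides. edgeR's quasi-likelihood test called 0 of 14789 genes at an adjusted p under 0.05 (0%), and the lowest adjusted p was 0.141, for Emb. At an unadjusted p under 0.05 there were 394 genes (2.66%), of which 173 were higher and 221 lower on the lacking side. DESeq2 on the same groups called 7 genes, 2 higher and 5 lower. The lower ones included Ftl2 and a clone-named gene at log2 fold changes of -25.8 and -24.4. These lie outside the edgeR range over all genes, -12.4 to 8.94. In this fit libraries of different genotypes stand in for replicates, so the p-values measure the spread between genotypes and pools, and the median standard error of a log2 fold change was 0.23. The differences below are therefore given as values, with "not overlapping" meaning that both libraries of a side lay above both of the other. That held for 3989 genes (27%), 1969 higher (13.3%) and 2020 lower (13.7%) where hs3b and hs4 were lacking, and member counts are to be read against these shares. In bulk RNA, fewer cells of a kind and less RNA per cell cannot be told apart, which applies to every level below.

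**Figure D1:**
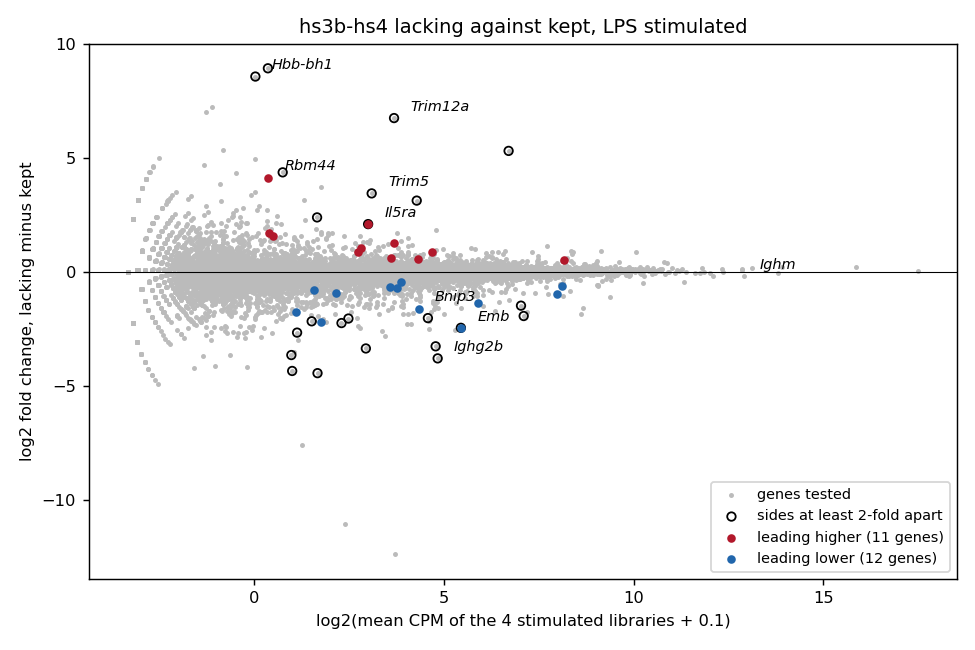
Each point is a gene: the x axis is log2 of its mean CPM + 0.1 over the 4 stimulated libraries, the y axis the fitted log2 fold change of the lacking minus the keeping side. Most genes lie near the median of 0.005, and the circled genes are the 23 whose sides lay at least 2-fold apart on CPM + 1.

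The IgG constant genes were low where hs3b and hs4 were lacking, and far lower in the 3'RR deletion than in the hs3b-hs4 deletion. The 4 genes together held 6 counts (0.223 CPM) in the 3'RR deletion library and 849 counts (33.7 CPM) in the hs3b-hs4 deletion library. They held 3014 counts (107 CPM) in the 3'PAL deletion library and 4294 counts (151 CPM) in the wild-type library. All 4 IgG genes had sides that did not overlap, against 13.7% of all genes, and in each the order began with the 3'RR deletion and then the hs3b-hs4 deletion. Resting libraries showed a like split, with IgG sums of 0.565 and 15.4 CPM against 51.7 and 61.6. At rest Ighg3, Ighg2b and Ighg2c again did not overlap, against 34.6% of all genes, and Ighg1 overlapped. Reads of these genes can be split between near-identical exons, Ighg2b and Ighg2c above all, so the division among them is uncertain.

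Ighg2b, a class to which LPS directs switching, was the only IgH constant gene at least 2-fold apart. Its levels were 0.149 CPM (4 counts) in the 3'RR deletion, 7.57 in the hs3b-hs4 deletion, 65.9 in the 3'PAL deletion and 40.1 in wild type. The log2 fold change was -3.79 ± 1.46 (SE), with an adjusted p of 1 in edgeR. Without the 3'RR deletion library it was -2.78 ± 1.24, and without the hs3b-hs4 deletion library -8.43 ± 1.89, so its size rests on which deletion is kept.

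Ighg3, the other class LPS favours, was at 1 count in the 3'RR deletion, 22.9 CPM in the hs3b-hs4 deletion, 35.3 in the 3'PAL deletion and 97.8 in wild type, a log2 fold change of -2.54 ± 1.55. Here the hs3b-hs4 deletion lay nearer to the 3'PAL deletion than the 3'PAL deletion lay to wild type. The log2 fold change of Ighg3 was -1.54 ± 0.89 without the 3'RR deletion library, -10.63 ± 1.73 without the hs3b-hs4 deletion library and -1.62 ± 1.89 without wild type. Ighg1 counts were 1, 64, 121 and 212 in the order 3'RR deletion, hs3b-hs4 deletion, 3'PAL deletion, wild type. Ighg2c counts in that order were 0, 16, 32 and 172. Both genes show the same order of libraries as Ighg3, at much lower counts. The log2 fold change of Ighg1 was -2.20 ± 1.85, with -1.20 without the 3'RR deletion and -7.13 without the hs3b-hs4 deletion. That of Ighg2c was -3.51 ± 1.83, with -9.55 without the hs3b-hs4 deletion and -1.84 without wild type. Ighe, the IgE gene, had 0, 1, 8 and 4 counts and did not pass the low-count filter.

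Ighm, the constant gene of IgM and the bulk of heavy chain RNA in these cells, did not separate the sides. Its level was 3567 CPM in the 3'RR deletion, 10850 in the hs3b-hs4 deletion, 6650 in the 3'PAL deletion and 9535 in wild type, a log2 fold change of -0.17 ± 0.63. The hs3b-hs4 deletion held the most Ighm and the 3'RR deletion the least, so the lacking side spanned the keeping one. Without the 3'RR deletion library the sign turned, to 0.43 ± 0.60, as it did without wild type (0.12), and the value was -1.18 without the hs3b-hs4 deletion and -0.40 without the 3'PAL deletion. Igha, the IgA gene, was at 4, 23, 20 and 30 counts in the same order, with a log2 fold change of -0.75 ± 1.04 that was 0.06 without the 3'RR deletion, -2.53 without the hs3b-hs4 deletion and -0.43 without wild type.

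**Figure D2:**
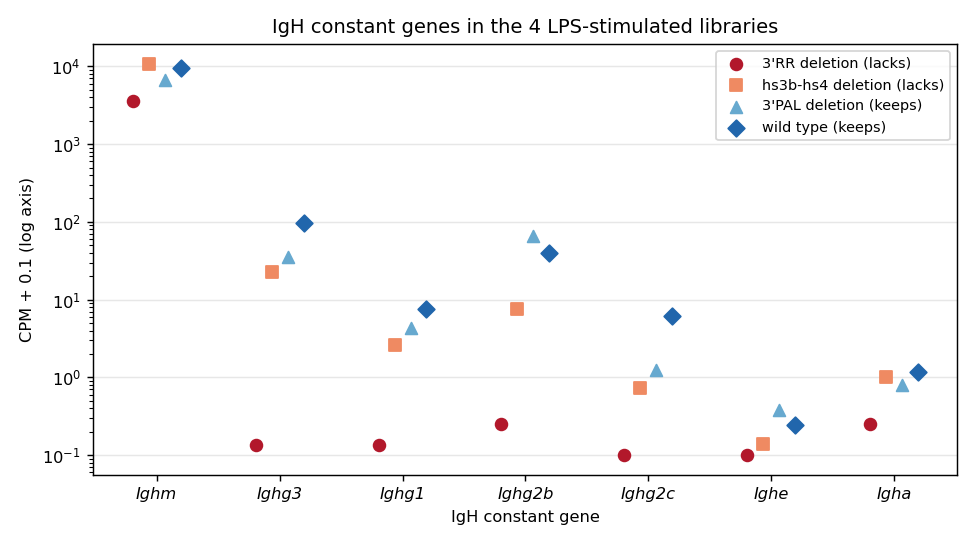
Points give the level of each IgH constant gene in the 4 stimulated libraries, as CPM + 0.1 on a log axis, with 1 point per library. For the 4 IgG genes the 3'RR deletion lies at the bottom near 0.1 to 0.25 and the hs3b-hs4 deletion between it and the keeping libraries, while for Ighm the hs3b-hs4 deletion is the highest at 10850 CPM.

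Transcripts of Ighm that encode the secreted and the membrane form end in different exons, and transcript estimates separated them. The secreted form was at 1762 TPM (a level scaled to transcript length and library size) in the 3'RR deletion, 7419 in the hs3b-hs4 deletion, 4018 in the 3'PAL deletion and 6769 in wild type. The membrane form was at 974, 1152, 1591 and 1348 TPM in that order. The secreted share of both forms was thus 64.4% in the 3'RR deletion, 86.6% in the hs3b-hs4 deletion, 71.6% in the 3'PAL deletion and 83.4% in wild type. The lacking side held both the lowest and the highest share, whereas the membrane form was lower in both lacking libraries. Estimated counts of Ighd, the IgD gene, were 1562 and 1857 in the 3'RR and hs3b-hs4 deletions and 3606 and 2045 in the 3'PAL deletion and wild type. As CPM of the estimated counts, without TMM factors, the hs3b-hs4 deletion (94.6) and wild type (93.2) were close, so Ighd overlapped.

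The summed level of IgH variable segments had the library order of Ighm. It was 551 CPM in the 3'RR deletion, 1809 in the hs3b-hs4 deletion, 1081 in the 3'PAL deletion and 1644 in wild type. Of 94 segments tested, 36 were lower and 1 higher in both lacking libraries, beside 13.7% of all genes lower and 13.3% higher. At an unadjusted p under 0.05 there were 9 of the 94, beside 2.66% of all genes, and none passed the adjusted test. Their median log2 fold change was -0.73 against 0.005 over all genes. Kappa segments did not share this: 2 of 96 were higher and 1 lower, with a median of 0.10.

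Light chain constant genes and other genes of antibody secretion overlapped. Igkc, the kappa constant gene, was at 4230 and 3356 CPM in the 3'RR and hs3b-hs4 deletions and at 4508 and 2215 in the 3'PAL deletion and wild type, a log2 fold change of 0.17 ± 0.44. It was 0.02 without the 3'RR deletion, 0.33 without the hs3b-hs4 deletion, 0.78 without the 3'PAL deletion and -0.25 without wild type. Iglc2, a lambda constant gene, was at 478 and 295 CPM against 349 and 237, a log2 fold change of 0.40 ± 0.28. It was 0.03 without the 3'RR deletion, 0.71 without the hs3b-hs4 deletion and likewise without the 3'PAL deletion, and 0.15 without wild type. Igj, the joining chain of secreted IgM and IgA, was at 1018 and 467 CPM against 609 and 166. For all of these genes the 3'PAL deletion lay above wild type, and wild type was the lowest of the 4 libraries.

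Member counts for programmes of the plasmablast response stand beside 13.3% of all genes higher and 13.7% lower on the lacking side. Among 22 transcription factors of plasma cell fate, 4 were higher and 3 lower in both lacking libraries, and the median log2 fold change was 0.03. Bach2, a repressor of the plasma cell programme, was the one of these with the largest difference, at 82.6 and 59.96 CPM against 54.96 and 41.5 (0.56 ± 0.24), and it was picked once the values were known. Pou2af1, a coactivator of octamer-binding factors, was at 556 and 541 CPM against 679 and 494, and Ikzf1, a lymphoid zinc finger factor, at 469 and 474 against 505.5 and 499.5. Of 23 plasmablast effector genes 1 was higher and 1 lower (median 0.16), and of 26 chaperone and unfolded protein response genes 2 were higher and 3 lower (median -0.02). Hsp90b1 and Hspa5, chaperones of the endoplasmic reticulum, overlapped at 1325 to 1720 and 1108 to 1284 CPM. The 9 plasma cell markers had none that separated the sides, and their summed level was 2316 and 1526 CPM against 1774 and 1108.

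Log2 fold changes of class switch and hypermutation genes ran from -0.19 to 0.55. The counts that follow stand beside 13.3% of all genes higher and 13.7% lower. Of 30 class switch and hypermutation genes 7 were higher and 0 lower where hs3b and hs4 were lacking, with a median log2 fold change of 0.06. Parp1 and Atm, both of the DNA damage response, overlapped at 284 to 318 and 210 to 308 CPM. The list's median turned to -0.01 without the 3'PAL deletion library. Of 19 factors that process heavy chain RNA 4 were higher and 0 lower (median 0.04), and of 20 octamer, CTCF and cohesin factors 1 was higher and 2 lower (median -0.01).

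Genes near the IgH locus were counted beside shares over all genes of 13.3% higher, 13.7% lower and 0.156% at least 2-fold apart. With so small a last share, finding none 2-fold apart among 69 genes says little about the neighbourhood. Within 5 Mb of the constant genes on chromosome 12, leaving out immunoglobulin genes, 69 genes were tested, of which 13 were higher and 2 lower, none 2-fold apart, with a median log2 fold change of 0.04. Of 23 tested genes in a list of flanking genes 4 were higher and 0 lower. Akt1, a kinase gene in this list, was at 107.5 and 103 CPM against 88.4 and 110.5, and Ncapg2, a condensin subunit, at 196 and 205 against 158 and 221.

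Beyond the IgH locus, Emb had the lowest p of all genes. Emb encodes embigin, a membrane glycoprotein that accompanies monocarboxylate transporters. It lies at chr13:117220625-117274098 (GRCm38) on the forward strand. Its level was 14.3 CPM in the 3'RR deletion and 12.7 in the hs3b-hs4 deletion, against 78.8 in the 3'PAL deletion and 68.3 in wild type. Both lacking libraries lay close together and far below both keeping ones, with a log2 fold change of -2.45 ± 0.21 and an adjusted p of 0.141 in edgeR. The resting libraries showed the same split, at 13.7 and 16.7 CPM against 76.6 and 53.6, and the difference between the states was -0.35. Leaving out each library in turn gave -2.54 to -2.34. Of 20 genes tested within 3 Mb of Emb, 3 were higher and 3 lower, with a median of 0.07, and 1 other was 2-fold apart.

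The promoter of Emb is shown because this gene separated the sides most clearly in both states. The window runs from 250 bases before to 50 bases after the start in RefSeq (GRCm38.p6), at chr13:117220323-117220622, forward strand. 3 motifs were searched on both strands: the octamer ATGCAAAT bound by Oct factors, the hypoxia response core ACGTG, and the interferon-stimulated response core, which is GAAA, then any 2 bases, then GAAA again. They occur in 1.75%, 19.7% and 3.49% of 27025 promoter windows. None of them is in the letters of this window.
Emb: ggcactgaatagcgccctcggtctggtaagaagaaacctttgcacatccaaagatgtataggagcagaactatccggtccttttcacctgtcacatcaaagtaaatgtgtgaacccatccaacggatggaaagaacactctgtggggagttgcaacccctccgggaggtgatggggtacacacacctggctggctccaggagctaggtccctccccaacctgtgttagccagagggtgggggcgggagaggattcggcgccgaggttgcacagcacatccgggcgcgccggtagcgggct

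Il5ra, the receptor chain for interleukin 5, led the genes higher on the lacking side. It was at 16.6 and 9.04 CPM in the 3'RR and hs3b-hs4 deletions and at 2.69 and 3.28 in the 3'PAL deletion and wild type, a log2 fold change of 2.10 ± 0.38. In resting cells the order was the same, at 12.2 and 7.44 against 3.90 and 5.09. Cxcl16, a chemokine with a membrane anchor, was at 1.75 and 1.94 against 0.531 and 0.600 CPM (1.70 ± 0.33, and 0.88 ± 0.29 with kallisto estimated counts). Ahr, a ligand-activated transcription factor, was at 9.60 and 7.49 against 5.16 and 4.13 CPM (0.88 ± 0.17). These 3 genes had sides that did not overlap in either state.

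Further leading genes spanned a wide range of levels. Nup210, a nuclear pore protein, was at 338 and 339 CPM against 231 and 246 (0.51 ± 0.10), with nearly equal levels within each side. Rbm44, an RNA-binding protein gene, was near its floor on the keeping side, at 3.42 and 1.11 against 0.142 and 0.106 CPM. Also among the 12 leading higher genes were Sh2d2a, Spg11, Rgs13, Myof, Cyp4f18 and Mrps12, with log2 fold changes from 0.56 to 1.60. Without the 3'RR deletion library the log2 fold change was 0.58 for Spg11, 0.60 for Myof and 0.79 for Cyp4f18, and with kallisto estimated counts it was 0.32 for Mrps12. All 12 had an adjusted p of 1 in edgeR, and with DESeq2 Il5ra passed at an adjusted p of 0.00232.

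After Emb, the leading lower genes showed smaller differences. Bnip3, a mitochondrial protein of mitophagy, was at 11.4 and 8.52 CPM against 40.7 and 19.8 (-1.60 ± 0.35). Ak4, a mitochondrial adenylate kinase, was at 1.15 and 1.19 against 7.64 and 3.14 (-2.20 ± 0.49). Tpi1, a glycolytic enzyme, was at 231 and 206 against 391 and 287 (-0.63 ± 0.16), and Glo1, which detoxifies a by-product of glycolysis, at 34.6 and 32.2 against 105 and 68.2 (-1.37 ± 0.36). In Bnip3, Ak4, Tpi1 and Glo1 the 3'PAL deletion was the highest library and wild type stood between it and the lacking side. Without the 3'PAL deletion library the log2 fold change was -0.99 ± 0.26 for Bnip3, -1.42 ± 0.43 for Ak4 and -0.39 ± 0.12 for Tpi1. Fes, a tyrosine kinase, was at 3.05 and 2.89 against 5.34 and 6.03 CPM (-0.94 ± 0.19), with wild type the highest. The remaining 6 were Acp6, Cdk5rap1, Scarna17, Hist1h2al, Gapt and Ralb, at -0.46 to -1.74. The log2 fold change of Hist1h2al moved from -0.96 to -2.33 with kallisto estimated counts and to -0.59 without the 3'RR deletion library.

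**Figure D3:**
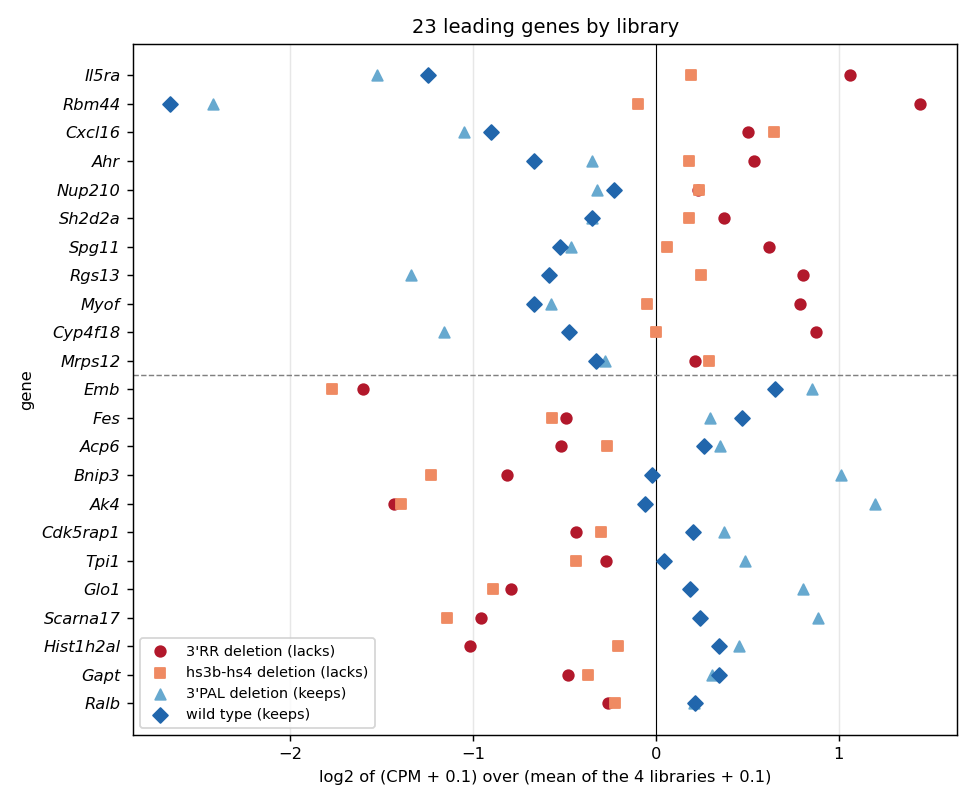
For 11 of the 12 leading higher genes (above the dashed line) and the 12 leading lower genes, points give log2 of CPM + 0.1 in a library over the mean of the 4 libraries + 0.1. The sides do not overlap in any of them, which the naming rule required, and within a side the libraries differ most for Rbm44, Bnip3 and Ak4.

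Glycolysis was the programme with the largest share of separated members. Of 22 genes 13 were lower (against 13.7% of all genes) and 0 higher, the median log2 fold change was -0.31, and 8 had an unadjusted p under 0.05, against 2.66% of all genes. No member passed the adjusted test. Gapdh was at 1214 and 1118 CPM against 1311 and 1295, and Pkm, pyruvate kinase, at 1069 and 968 against 1563 and 1236. The next 2 genes were picked once the values were known. Pgk1, phosphoglycerate kinase, was at 449 and 407 against 726 and 545 CPM, and Slc16a3, a lactate exporter, at 4.13 and 1.23 against 31.4 and 6.63. The 3'PAL deletion library was the highest in 15 of the 22 genes, against 4763 of 14789 over all genes. The median was -0.26 without that library and -0.47 without wild type. In resting cells the same list had 10 of 22 genes higher and 0 lower on the lacking side, with a median of 0.12. Over all genes at rest, 3101 of 14789 were higher and 2010 lower, with a median of 0.04. The difference between states was not tested for the list as a whole.

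The promoter of Bnip3 is shown as that of a leading lower gene with a motif match, picked once the matches were known. Its window is chr7:138909457-138909756, reverse strand, in RefSeq (GRCm38.p6), with matches to the hypoxia response core in capitals. The 2 matches lie on opposite strands and overlap. Of 20 glycolysis genes with a window 11 held this core, beside 19.7% of all windows, and of 10 leading lower genes 3 did. A match describes letters and is no evidence of binding.
Bnip3: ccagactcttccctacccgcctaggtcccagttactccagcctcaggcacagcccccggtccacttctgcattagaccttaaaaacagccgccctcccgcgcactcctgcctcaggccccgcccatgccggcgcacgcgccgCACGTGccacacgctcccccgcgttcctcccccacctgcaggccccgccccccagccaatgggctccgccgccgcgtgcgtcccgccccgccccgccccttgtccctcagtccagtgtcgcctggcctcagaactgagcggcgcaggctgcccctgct

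Cholesterol synthesis genes had a like count with smaller differences. Of 23 genes 13 were lower (against 13.7% of all genes) and 0 higher (against 13.3%), with a median log2 fold change of -0.16. In resting cells 6 of the 23 were higher and 3 lower, beside 3101 and 2010 of 14789 genes. Hmgcs1, an early enzyme of the pathway, was at 290.1 and 359.5 CPM against 402 and 391. The 3'PAL deletion was highest in 20 of the 23 genes, against 4763 of 14789 over all genes. Without the 3'PAL deletion library the stimulated median was -0.06, closer to 0 than with it, while without wild type it was -0.26.

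Counts of proliferation and signalling genes are likewise to be set against 13.3% of all genes higher and 13.7% lower. Of 36 cell cycle genes 5 were higher and 0 lower (median 0.13), and without the 3'PAL deletion library the median turned to -0.07, while without wild type it was 0.37. Mki67, a marker of dividing cells, was at 1677 and 1621 CPM against 1539 and 1561, and Top2a, a topoisomerase of dividing cells, at 1179 and 1136 against 908 and 1208. None of 24 ribosome biogenesis genes separated the sides, and wild type was the highest library in all 24, against 3664 of 14789 over all genes. Npm1, a nucleolar protein, was at 1964 and 1891 CPM against 1486 and 2306. Of 31 NF-kB and TLR4 response genes 2 were higher and 6 lower (median -0.03), with Nfkb1 at 240 and 277 against 253 and 278 CPM. Of 21 tested cytokine and chemokine genes 1 was higher and 2 lower, and of 15 Bcl2 family genes 1 and 1.

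Genes of B cell subsets gave mixed counts, beside 13.3% of all genes higher and 13.7% lower. Of 28 identity and follicular genes 2 were higher and 3 lower (median 0.12). Of 17 marginal zone genes 2 were higher and 5 lower (median 0.00), and Cr2, the complement receptor, was at 174 and 223 CPM against 234 and 258. Of 14 B-1 genes 3 were higher and 0 lower (median 0.30), Ahr among them. Of 34 interferon-stimulated genes 4 were higher and 3 lower (median -0.11), with the 3'PAL deletion highest in 25, against 4763 of 14789 over all genes. Of 19 immediate early genes 2 were higher and 1 lower (median -0.16), with the 3'PAL deletion highest in 15. Monocyte and macrophage markers had 4 of 17 higher and 0 lower, and summed to 38.2 and 19.6 CPM against 26.0 and 20.8.

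**Figure D4:**
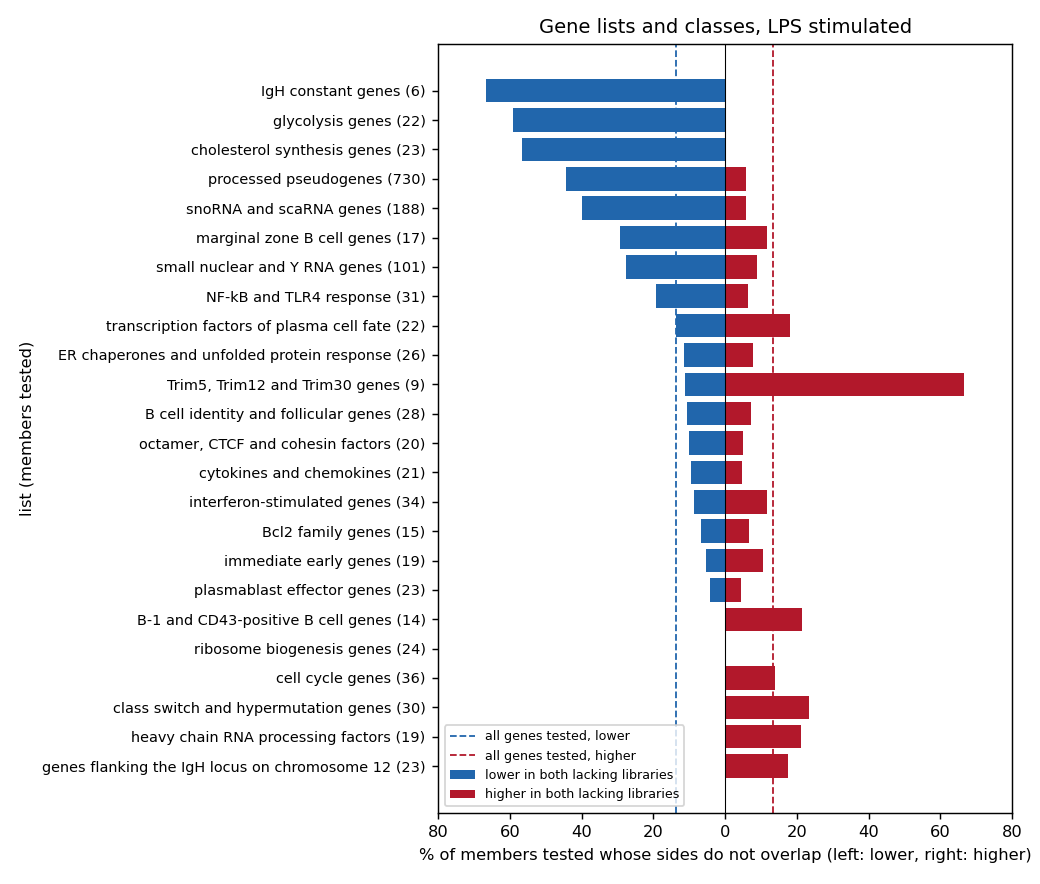
Bars give, for each list and for 3 classes of non-coding genes, the percentage of tested members lower (left, blue) or higher (right, red) in both lacking libraries; dashed lines give the share over all genes tested, 13.7% lower and 13.3% higher. IgH constant, glycolysis and cholesterol synthesis genes extend farthest left, and the Trim genes farthest right with 6 of 9.

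A wider separation, at least 2-fold on CPM + 1, held for 23 genes (0.156%), 9 higher (0.0609%) and 14 lower (0.0947%). Of the 14 lower genes 1 was protein-coding (Emb) and 1 an IgH constant gene (Ighg2b), 4 were processed pseudogenes, 7 were small RNA genes such as Rny3 and Rnu12, and 1 had no class in the annotation. Rnu12, a small nuclear RNA of the minor spliceosome, was at 12.5 and 6.30 CPM against 49.5 and 26.8. Of the 9 higher genes 6 lay on chromosome 7, and the others were Il5ra, Igf2bp3 and Oasl2. Oasl2, an interferon-stimulated gene, was at 3.94 and 2.10 CPM against 0.177 and 0.106, and Igf2bp3, an RNA-binding protein, at 5.47 and 4.80 against 0.354 and 1.59. In resting cells 32 genes (0.216%) were 2-fold apart and 5111 (34.6%) did not overlap. Of the 23 stimulated genes only 2 were 2-fold apart in the same direction in both states (0.0135% of all genes), Emb and 1 processed pseudogene.

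The 6 chromosome 7 genes spanned chr7:103841636-106604035 (GRCm38). This segment was set by the outer ends of those genes, so they lie in it by definition. It held 37 tested genes, of which 11 were higher, those 6 included, and 6 lower. Over all genes 13.3% were higher and 13.7% lower. The segment holds the Trim5, Trim12, Trim30 and Trim34 genes, a family with antiviral members, and ends with an unprocessed pseudogene. Trim12a was at 37.3 and 13.3 CPM in the 3'RR and hs3b-hs4 deletions, and at 0.389 and 0.0705 in the 3'PAL deletion and wild type. Trim5 was at 22.9 and 8.05 against 1.52 and 1.31, and Trim30d at 48.0 and 21.5 against 5.94 and 1.98. These paralogs are near-identical in parts and Trim12a overlaps an antisense gene that also separated the sides, so the division of counts among them is uncertain. Trim12c (56.9 and 55.0 CPM against 70.0 and 50.9) and Trim30a (159 and 161 against 257 and 90.5) overlapped.

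Resting cells did not show the same split of these genes. Resting Trim12a was at 84.9 CPM in the 3'RR deletion but at 0.351 in the hs3b-hs4 deletion, beside 0.287 in the 3'PAL deletion and 0.675 in wild type. Resting Trim5 was at 33.8 in the 3'RR deletion and 1.07 to 1.82 in the other 3. The hs3b-hs4 deletion library thus held 0.357 of the 3'RR deletion level of Trim12a when stimulated and 0.00413 when resting. The same ratios were 0.351 and 0.0334 for Trim5 and 0.448 and 0.0652 for Trim30d. For Trim12a, Trim5 and Trim30d only the 3'RR deletion was high in both states. Hbb-bh1, the first gene of the segment, differed. It was at 2.49 CPM in the stimulated 3'RR deletion and 1.19 in the stimulated hs3b-hs4 deletion, but at 0 to 0.106 in the resting libraries. What sets the stimulated hs3b-hs4 deletion library apart from its resting counterpart, RNA of another pool or other animals included, was not tested. For the 9 tested Trim genes the median log2 fold change was 1.26, with 0.83 without the 3'RR deletion library and 1.61 without the hs3b-hs4 deletion library. Without the latter 233 genes lay 2-fold apart in place of 23, the lacking side then being a single library.

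**Figure D5:**
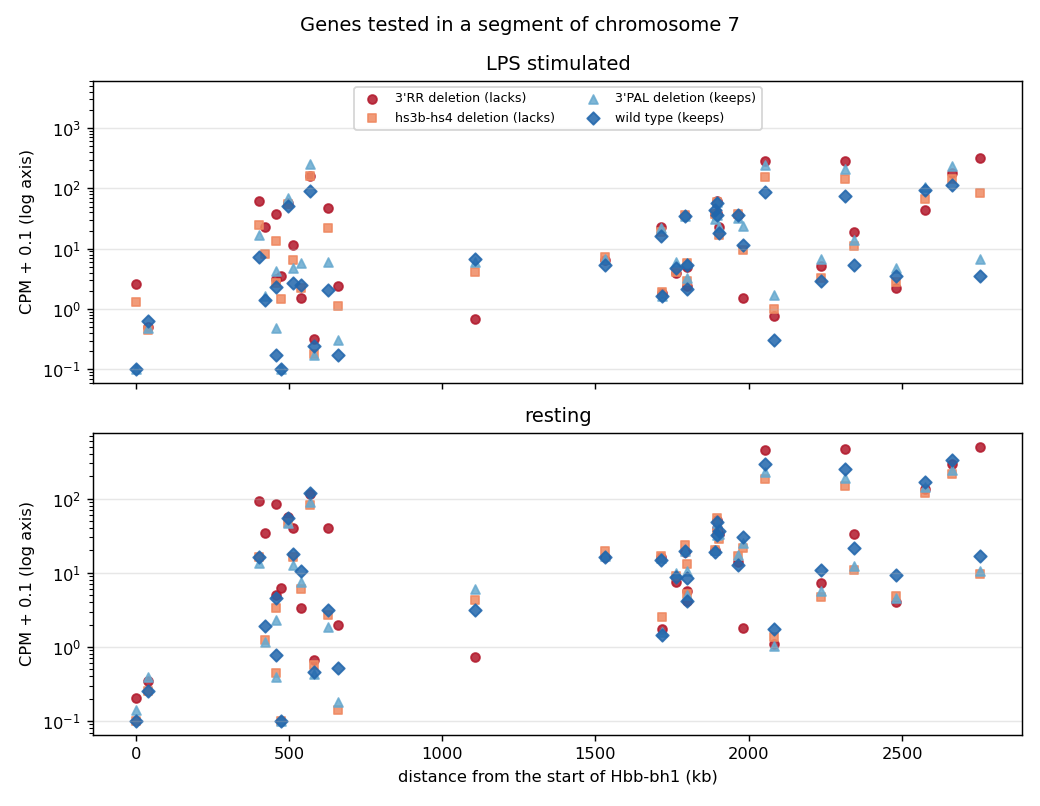
Points give CPM + 0.1 on a log axis for each tested gene of the chromosome 7 segment against its distance in kb from the start of Hbb-bh1, for the 4 stimulated (top) and the 4 resting libraries (bottom). Near 450 kb the hs3b-hs4 deletion stands above the keeping libraries when stimulated (Trim12a at 13.3 CPM) but among them when resting (0.351 CPM).

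The promoters of Trim12a and Trim5 are shown because both genes had their highest levels in the same libraries. They are at chr7:104315446-104315745 and chr7:104288057-104288356, both on the reverse strand, in RefSeq (GRCm38.p6). The capitals mark the interferon-stimulated response core, which here lies on the opposite strand. The windows share a run of 241 identical bases, and the match lies within it. Of 10 Trim genes with a window 7 held this core, beside 3.49% of all windows.
Trim12a: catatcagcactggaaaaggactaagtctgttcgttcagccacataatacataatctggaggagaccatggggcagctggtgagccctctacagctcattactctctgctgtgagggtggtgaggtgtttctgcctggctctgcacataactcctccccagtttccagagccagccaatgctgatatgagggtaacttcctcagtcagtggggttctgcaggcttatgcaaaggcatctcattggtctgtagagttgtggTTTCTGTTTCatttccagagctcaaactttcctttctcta
Trim5: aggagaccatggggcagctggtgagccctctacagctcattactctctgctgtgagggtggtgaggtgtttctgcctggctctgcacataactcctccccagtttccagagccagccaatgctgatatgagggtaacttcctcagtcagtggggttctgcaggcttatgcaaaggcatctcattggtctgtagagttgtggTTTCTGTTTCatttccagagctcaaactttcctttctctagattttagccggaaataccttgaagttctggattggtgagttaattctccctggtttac

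The difference between the sides was compared between stimulated and resting cells in the same fit. edgeR called 0 genes for this difference, with 307 at an unadjusted p under 0.05 and a lowest adjusted p of 0.9999, and DESeq2 called 2. Sides that did not overlap in the same direction in both states were found for 1073 genes (7.26%), and in opposite directions for 417 (2.82%). Emb, Il5ra, Glo1 and Cdk5rap1 were among the former. Fes, Ak4, Tpi1 and Ralb were among the latter, lower on the lacking side when stimulated and higher when resting. Monocyte and macrophage markers had 15 of 17 higher and 0 lower on the resting lacking side, with a median log2 fold change of 1.58. Of 11 dendritic cell markers 7 were higher and 0 lower there, beside 3101 of 14789 genes higher. Whether RNA of such cells adds to the resting differences was not tested.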

How the data were processed

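Total RNA of CD43-negative splenic B cells was depleted of ribosomal RNA and sequenced from stranded paired-end libraries, per the labels' protocols. The authors deposited raw counts per gene symbol, and estimated counts and TPM per transcript. The submitters' processing notes name STAR 2.4.0a, featureCounts, Subread 1.4.6-p1, kallisto 0.42.3, SAMtools, bedtools and the build GRCm38 (mm10). No source used here gives the annotation version or the strand setting, so overlapping antisense genes cannot be told apart. In the transcript TPM table some annotation headers did not match their columns; the sample columns carry sample names.

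Of 41250 listed genes, 25075 had a count. Excluded were 1 unnamed entry, with 0.00621 to 0.0342% of the counts, and 92 spike-in entries, all at 0. A floor of 3 counts was 0.106 to 0.119 CPM in the stimulated libraries, which covers counting error only.

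Counts of all 8 libraries were scaled by TMM and fitted with edgeR 4.0.16 (quasi-likelihood, R 4.3.3, limma 3.58.1) as 4 groups of 2, side by state, with 4 residual degrees of freedom and a biological coefficient of variation of 25.9%. The filterByExpr function kept 14789 genes, and Benjamini-Hochberg adjustment ran over all of them (threshold 0.05). The script was tested on simulated data. Sides 2-fold apart were found on CPM + 1. DESeq2 1.42.0, other scalings, filters and pseudocounts, kallisto estimated counts rounded per gene, the stimulated libraries alone and leaving out each library were alternatives.

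Named were all IgH and light chain constant genes, the 12 leading genes of each direction (none was called, so the lowest unadjusted p among genes of at least 1 CPM whose sides did not overlap) and the 2 most abundant genes of lists. A few genes that this rule names are not reported here. Clone-named genes and V, D and J segments were counted and not named. The members, lists and comparisons were chosen with earlier results of these data known. Gene classes came from GENCODE M21, which matched 94.7% of tested genes, and promoters from RefSeq.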

Additional observations from a re-analysis of the deposited data

Results flagged for a closer look

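For 4 of the named genes both lacking libraries lay on one side of both keeping libraries when stimulated and on the opposite side when resting. The stimulated minus the resting log2 difference was -1.30 ± 0.26 (SE) for Fes, -6.99 ± 1.44 for Ak4, -0.96 ± 0.23 for Tpi1 and -0.93 ± 0.18 for Ralb. None passed edgeR's test of that difference (adjusted p 0.9999 for each, and 1 with genotype as a block), and over all genes 2.82% showed such opposite sides. Ak4 was listed at 0 to 0.141 CPM in resting cells, so its value rests on few resting counts. Monocyte and macrophage markers were also higher on the resting lacking side (15 of 17), and their part in these values was not tested. Groups of 2 libraries allow no check for a sample far from its group.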

How the results depend on the processing

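The count of 0 called genes was 0 with median-of-ratios scaling, a mean of at least 1 CPM, kallisto estimated counts, the 4 stimulated libraries alone, and without any 1 stimulated library (0 to 0). It was 1 with library size alone (Emb, adjusted p 0.0367), 8 with no low-count filter (5 higher, 3 lower) and 7 with DESeq2 (2 higher, 5 lower). Emb, Il5ra and Bnip3 were among the calls of both of the last. The lower DESeq2 calls also held Ftl2 and a clone-named gene at log2 fold changes of -25.8 and -24.4. For the difference between states the count was 2 with DESeq2 and 0 in the other alternatives (0 to 0 leaving out libraries). The 23 genes 2-fold apart became 54 with a pseudocount of 0.25 CPM and 7 with 5 CPM, and 90 to 233 without 1 library: 90 without the 3'RR deletion, 233 without the hs3b-hs4 deletion, 94 without the 3'PAL deletion and 144 without wild type. With kallisto they were 29, of which 18 were higher, against 9 of 23. Of 350 values of named genes under alternatives, 336 kept direction and call, 10 passed the threshold and 4 turned sign: Ighm was 0.43 without the 3'RR deletion and 0.12 without wild type, Igha 0.059 without the 3'RR deletion, and Igkc -0.25 without wild type. List medians, an alternative added after seeing the data, turned sign for class switch genes (-0.006) and cell cycle genes (-0.071) without the 3'PAL deletion, and moved for cell cycle genes to 0.37 without wild type. The causes were not tested. The difference between states was also fitted with each genotype as a replicate block, pairing its resting and stimulated library, a fit chosen after seeing the data that leaves 2 residual degrees of freedom. It called 0 genes, with 416 at an unadjusted p under 0.05, 346 of them lower. Genotypes deviated together in both states (Pearson's r across genes 0.50 for the lacking and 0.22 for the keeping side), while the labels do not say that the same animals gave both. The stimulated contrast alone cannot be paired, since each genotype is a single library there. At counts of 0 to 4, as for IgG genes in the 3'RR deletion, depth limits the fold changes.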

Other observations

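Gene classes were looked at after the values were seen. Processed pseudogenes, snoRNA and scaRNA genes, and small nuclear and Y RNA genes were lower in both lacking libraries more often than all genes. Over all genes 13.7% were lower and 13.3% higher. Nearer to these shares were long non-coding RNA genes (17.0% of 493 lower, 12.4% higher) and miRNA genes (15.0% of 80 lower, 17.5% higher). Of 730 processed pseudogenes tested, 324 (44.4%) were lower and 42 higher in both lacking libraries, with a median log2 fold change of -0.33. Their summed level was 7212 CPM in the 3'RR deletion and 8748 in the hs3b-hs4 deletion, against 11030 in the 3'PAL deletion and 10650 in wild type. Of 188 snoRNA and scaRNA genes 75 (39.9%) were lower and 11 higher, with sums of 2895 and 2008 CPM against 3471 and 3188. Of 101 small nuclear and Y RNA genes 28 were lower and 9 higher, with a median log2 fold change of -0.25. Their summed level did not follow that median, at 28660 and 24910 CPM against 26780 and 22780, which overlapped. The median was -0.47 with a mean of at least 1 CPM, -0.51 without the 3'RR deletion library and -0.17 without the hs3b-hs4 deletion library. Protein-coding genes had 1257 of 11762 lower (10.7%) and 1701 higher (14.5%). Reads of pseudogenes can come from their parent genes, and how much of each count does was not tested. Leaving out each stimulated library in turn, the median stayed between -0.36 and -0.27 for processed pseudogenes and between -0.34 and -0.24 for snoRNA and scaRNA genes.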
